A study of Mus musculus with 78 samples.

Results

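The 300 stitched distal Mediator domains described here are the regions that carried the most MED23 far from gene starts in untreated mouse embryonic stem cells (mESCs), out of 20624 such regions. They were chosen from the deposited MED23 ChIP-seq peaks of the DMSO libraries. Of the 63045 peaks of DMSO replicate 1, 51677 overlapped a peak of DMSO replicate 2, and 32073 of these lay more than 2.5 kb from every one of the 54489 gene starts in the RNA-seq tables. Peaks no more than 12.5 kb apart were joined into 1 region, and each region was scored by the sum of the fold enrichment of its peaks times their width. The 300 regions of highest score were kept, and their MED23, RNA polymerase II (RNAPII), acetylated histone H3 lysine 27 (H3K27ac) and nearest expressed genes were followed after loss of TRIM28. Because MED23 in the DMSO libraries chose the domains, its values there and its change from them are given as a description, with no test.

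TRIM28 is an adapter that brings silencing machinery to endogenous retroviruses, and the study asked what its acute loss does to transcription in mESCs. All treated cells were V6.5 mESCs in which both the control and the treated groups carried TRIM28 fused to FKBP, a tag that lets the compound dTAG-13 direct the protein to degradation. For ChIP-seq, cells received 500 nM dTAG-13 for 24 h or 0.05% DMSO, with 2 libraries per group for MED23 and RNAPII and 3 per group for H3K27ac and H3K9me3. TT-SLAM-seq, which captures RNA made during a short labelling pulse, had 3 libraries per group, in DMSO or with 500 nM dTAG-13 for 2 h, 6 h or 24 h, and poly(A) RNA-seq had the same groups plus 3 libraries at 96 h. In a second line of the same background, named shREPEATS and carrying inducible hairpin RNAs against repeat RNAs, total RNA was sequenced from 3 libraries each labelled DMSO, 500 nM dTAG-13 and 500 nM dTAG-13 with 2 µg/ml doxycycline (Dox). The labels list Dox before treatment for all of these groups, so the groups were taken from the sample titles. Neural progenitor cells (NPCs) in DMSO gave another cell type, with 3 poly(A) RNA-seq libraries, and the V6.5 parent without the tag gave 3 more. The mESCs were expanded on mouse embryonic fibroblasts as feeders. For the ChIP-seq and RNA libraries, the paper's methods describe 2 rounds of feeder removal before the cells were plated on gelatin. The assayed cultures were thus not grown on feeders, and any feeder cells left over were not counted here. Per the labels' treatment notes the DMSO libraries of the RNA-seq time course, titled 0 h, were collected 24 h after DMSO was added. The 96-h libraries therefore have no control of the same age. The labels do not say that replicates were separate cultures. The paper's legends call the TT-SLAM-seq, time-course RNA-seq and total RNA-seq data biological replicates. For other assays it uses that term for wells of a culture plate. The p-values thus measure the spread between these libraries, which may be technical. In these bulk samples, fewer cells of a type and less RNA per cell cannot be told apart.

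Mediator is a large complex that carries signals from transcription factors bound at enhancers to RNAPII at promoters, and MED23 is a subunit of its tail. Clusters of enhancers with very high Mediator, called super-enhancers, lie near genes that define a cell type. In mESCs these include genes for the pluripotency factors SOX2, KLF4 and ESRRB. H3K27ac marks active enhancers and promoters, and H3K9me3 marks silenced chromatin.

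Sequences at the highest MED23 peak of 5 domains are shown, because the values at these domains span what was seen: the highest-ranked domain, a domain that lost most of its MED23 beside a gene that fell, a domain beside the gene with the largest rise, the domain that gained MED23 height, and a domain with no H3K27ac. Each is 300 bases of the + strand of GRCm38/mm10, centred on the peak, in lower case with matches to any of 5 motifs in capitals. The letters searched on both strands were ATGCAAAT (POU octamer), ACAATGG (SOX), TCAAGGTCA (ESRRB), GGGNGTGG (KLF) and CCAAT (NFY), and none of the matches shown overlap.
Lefty1 domain, chr1:180924752-180925051: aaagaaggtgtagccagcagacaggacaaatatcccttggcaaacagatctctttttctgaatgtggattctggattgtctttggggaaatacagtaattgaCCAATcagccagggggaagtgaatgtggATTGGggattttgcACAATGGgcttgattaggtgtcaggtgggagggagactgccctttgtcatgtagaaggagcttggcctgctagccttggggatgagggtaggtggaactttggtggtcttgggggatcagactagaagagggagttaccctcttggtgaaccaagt
Klf4 domain, chr4:55475438-55475737: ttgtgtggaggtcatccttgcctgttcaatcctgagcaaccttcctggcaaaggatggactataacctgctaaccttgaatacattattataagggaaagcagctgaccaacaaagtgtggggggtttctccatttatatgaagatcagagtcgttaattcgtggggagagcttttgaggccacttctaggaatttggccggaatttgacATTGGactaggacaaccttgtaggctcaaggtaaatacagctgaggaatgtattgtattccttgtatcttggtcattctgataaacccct
Fos domain, chr12:85455231-85455530: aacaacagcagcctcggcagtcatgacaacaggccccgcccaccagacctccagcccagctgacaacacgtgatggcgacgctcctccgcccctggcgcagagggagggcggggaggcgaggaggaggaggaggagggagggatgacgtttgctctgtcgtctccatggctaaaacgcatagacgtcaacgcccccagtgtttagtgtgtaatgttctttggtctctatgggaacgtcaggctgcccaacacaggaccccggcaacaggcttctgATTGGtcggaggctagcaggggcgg
Bcar3 domain, chr3:122434059-122434358: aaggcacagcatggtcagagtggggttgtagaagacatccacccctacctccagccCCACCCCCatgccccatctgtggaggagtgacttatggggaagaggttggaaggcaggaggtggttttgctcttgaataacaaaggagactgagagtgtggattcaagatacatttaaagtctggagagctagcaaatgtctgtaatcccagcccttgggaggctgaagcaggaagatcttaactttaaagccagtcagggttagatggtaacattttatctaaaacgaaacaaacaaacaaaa
Lhx4 domain, chr1:155741069-155741368: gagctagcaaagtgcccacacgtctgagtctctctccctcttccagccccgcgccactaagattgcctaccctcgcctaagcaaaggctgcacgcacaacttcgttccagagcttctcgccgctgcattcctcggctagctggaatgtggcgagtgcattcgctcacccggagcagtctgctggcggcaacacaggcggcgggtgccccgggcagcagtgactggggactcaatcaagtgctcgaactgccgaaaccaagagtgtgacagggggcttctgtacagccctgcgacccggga
The Lefty1 window lies between genes and holds the SOX letters once, starting at base 145, and the NFY letters at bases 103 and 131. The Klf4 and Fos windows lie between genes too and hold the NFY letters once each, at bases 211 and 276. The Bcar3 window, in an intron of Bcar3 and of its antisense transcript Gm42836, holds the KLF letters at base 57. The Lhx4 window, in an intron of Lhx4, holds none of the 5. It has 20 CpG dinucleotides and the Fos window 18, against 0 for Lefty1, 3 for Klf4 and 1 for Bcar3.

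Over the windows of all 300 domains, the octamer was present in 29 (9.67%), against 5.44% of the 31773 windows of other distal peaks. The SOX letters were present in 47 (15.7%), against 7.50% elsewhere. The ESRRB letters were present in 7 (2.33% against 1.78%), the KLF letters in 50 (16.7% against 15.7%) and the NFY letters in 81 (27% against 31.2%). The other windows include the remaining peaks of the domains, and the sets are not matched for peak height. In the 66 domains over super-enhancers the octamer was present in 4 windows (6.06%) and the SOX letters in 10 (15.2%). There the ESRRB letters were present in 4 (6.06%), the KLF letters in 12 (18.2%) and the NFY letters in 16 (24.2%). A match is a run of letters and not a measured binding site.

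The domains spanned 5.63 Mb and held 27.8% of the summed score of all 20624 regions. Their length had a median of 14315.5 bp, from 1239 to 81186 bp, against a median of 533.5 bp for the other 20324 regions. They held 1528 peaks, with a median of 4 per domain (1 to 34), and 43 were a single peak. Scores ran from 101253 to 1316320 with a median of 156265. The choice at 300 is not a gap: domains 299 and 300 scored 101273 and 101253, and the next regions 101246 and 100497. In 64 domains a gene start lay inside the joined span, since the distance to gene starts was asked of single peaks only. The highest peak lay between genes in 152 domains, in an intron in 138, in a UTR in 7 and in another exon in 3. Of the 231 super-enhancers that the study lists from an earlier mESC annotation, 67 (29.0%) were overlapped by 66 of the domains (22%), against 152 of the other 20324 regions (0.748%). Full-length MMERVK and MMETn retroviral elements, among the families that TRIM28 silences, were overlapped by 6 domains (2%) and by 1.44% of the other regions. The shares for both lists are not matched for the length of the regions.

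The library totals set how far peaks can be compared. MED23 had 63045 and 58925 peaks in the DMSO libraries and 15335 and 14551 after dTAG-13, RNAPII 19853 and 19194 against 8182 and 7689, and H3K27ac 88050, 117475 and 96407 against 30259, 117348 and 45662. H3K27ac dTAG-13 replicate 2 therefore had as many peaks as the DMSO libraries, while dTAG-13 replicate 3 was the least like the rest, with a correlation of 0.450 to 0.563 to every other H3K27ac library over the 20624 regions. For each antibody every library was cut to its peaks of highest fold, as many as in the library with the fewest, and a load was computed per domain. The load is the fold enrichment summed over the bases of the domain that a peak covers, divided by the length of the domain. Peak lists hold no reads and no scaling to a reference genome added to each sample. In these lists, a fall that is shared by the whole genome and a library of lower quality cannot be told apart. The paper describes its RNAPII ChIP as done with an exogenous reference genome, but that scaling is not in the peak lists. It also reports no change in the overall level of RNAPII after 24 h.

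MED23 was lower at nearly all of the domains after 24 h of dTAG-13. The mean of log2(load + 1) over the 300 domains was 4.01 and 3.97 in the DMSO libraries, and 1.82 and 1.73 in the dTAG-13 libraries. Over the other 20324 regions it was 0.897 and 0.870, then 0.467 and 0.439. Both dTAG-13 libraries lay below both DMSO libraries at 298 of the 300 domains, against 27% of all 20624 regions and 59.4% of the other regions with a load in any library, and nothing is read from this since DMSO MED23 chose the domains. The domains were not left empty, as 299 still had a MED23 peak in each dTAG-13 library, against 31.1% and 30.1% of the other regions. These shares are not matched for length, and the domains are longer (median 14315.5 bp against 533.5 bp). Peaks covered 36.0% and 35.8% of the bases of the domains in the DMSO libraries, and 11.1% and 9.86% in the dTAG-13 libraries. The mean fold over the covered bases was 33.1 and 33.6, then 17.7 and 18.4. Of the 1528 peaks that made up the domains, 619 (40.5%) and 590 (38.6%) were overlapped by a dTAG-13 peak, against 24.0% and 23.2% of the other distal peaks.

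The share of each library's summed peak score that lay in the domains was 16.6% in both DMSO libraries and 16.2% and 16.4% after dTAG-13, at matched numbers of peaks. With all deposited peaks the domains' share was 2.56 percentage points higher after dTAG-13. The direction of the change in share thus depends on which peaks are counted, whereas the load was lower with either.

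**Figure D1:**
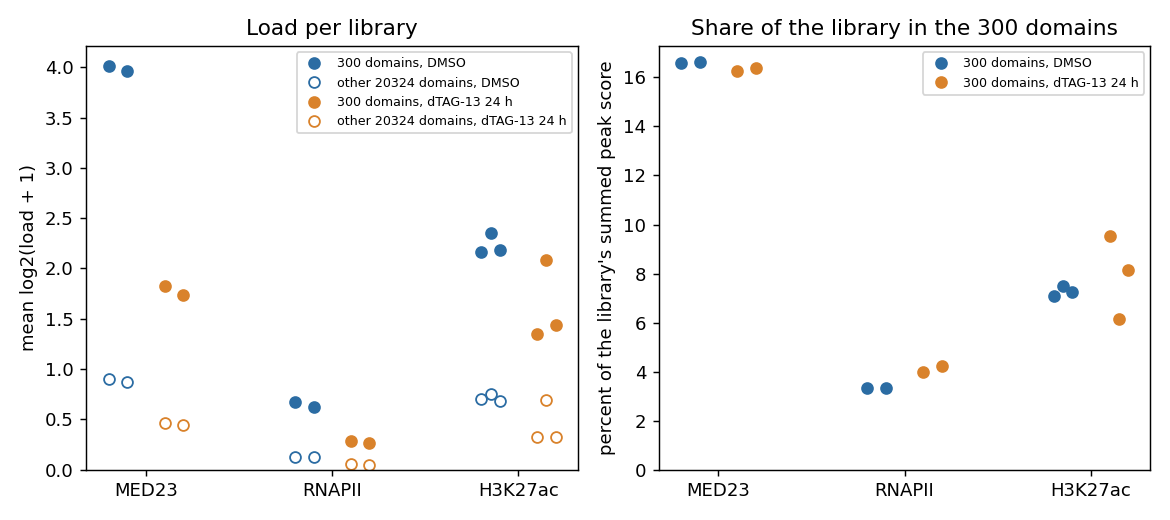
Each point is 1 ChIP-seq library. The left plot gives the mean of log2(load + 1) over the 300 domains (filled) and over the other 20324 regions (open) for MED23, RNAPII and H3K27ac, and the right plot the percentage of the library's summed peak score that lay in the 300 domains. MED23 loads at the domains were 4.01 and 3.97 in DMSO against 1.82 and 1.73 after dTAG-13, while their share was between 16.2% and 16.6%.

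The height of the highest MED23 peak shows how the domains differed among themselves. Its median over the domains was 50.3-fold and 50.0-fold in the DMSO libraries and 16.4-fold and 16.6-fold after dTAG-13. As a ratio of the means of the libraries, domains kept a median of 32.1% of their height, with quartiles at 23.2% and 48.5% and a range of 7.23% to 186%. The 66 domains over super-enhancers kept a median of 27.7% and the other 234 kept 34.7%. The 10 highest-ranked domains kept a median of 20.8%, and those ranked 291 to 300 kept 40.6%. Nothing is read from differences in height kept between sets of domains, here or below. DMSO MED23 chose and ranked the domains and is also what the height kept is divided by. Domains with a gene start inside kept 30.1% and those without kept 32.9%.

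The domain of highest score, at chr1:180909659-180931514 and 3508 bp from the start of Lefty1 (a secreted inhibitor of Nodal signalling), had a highest MED23 fold of 320 and 295 in DMSO against 61.3 and 60.8 after dTAG-13. Its load went from 59.5 and 56.7 to 3.59 and 3.03. This was the highest peak of any domain in DMSO, and the window at that peak is printed above.

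Among the other 9 highest-ranked domains, 8 were well below their DMSO heights and 1 stood apart. The domain over Mkrn1, which encodes a ubiquitin ligase, was at 142 and 131, then 18.6 and 18.4. The domain beside Spen, which encodes a transcriptional repressor needed for X inactivation, was at 123 and 111, then 13.9 and 15.8. The domain beside Mcl1, which encodes an inhibitor of apoptosis, was at 114 and 107, then 32.4 and 36.6. In each of them the libraries of the groups were well apart. The exception was the domain at chr11:83231596-83240758 near Gm11427, annotated as an unprocessed pseudogene, at 118 and 118 in DMSO against 88.0 and 91.4 after dTAG-13, or 75.8% of its height. The remaining domains of the 10 lay in an intron of Myo10 with Gm4824 as nearest expressed gene (80.6 and 87.8, then 24.7 and 25.5), over Epha2 (80.9 and 76.6, then 26.9 and 26.9), near Gm3375 (87.2 and 94.8, then 21.0 and 18.5), in an intron of Onecut3 with Rexo1 as nearest expressed gene (156 and 153, then 22.9 and 18.8) and near Ptma (90.7 and 92.0, then 12.3 and 14.9). Gm4824 and Gm3375 are annotated as processed pseudogenes, whose reads may be shared with near-identical copies.

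The domains of Sall1, Klf4, Sox2, Esrrb and Klf2, genes for transcription factors of the pluripotent state, each kept less than the lower quartile of 23.2%. For Sall1, a zinc-finger factor, the domain at chr8:89002066-89021836 was at 103 and 91.9 in DMSO against 9.48 and 9.87 after dTAG-13. For Klf4, the domain at chr4:55473738-55481256, 51210 bp from the gene start, was at 89.9 and 94.8, then 15.1 and 15.4. For Sox2, the domain at chr3:34728395-34761876, 77990 bp from the gene start, was at 46.3 and 54.5, then 9.96 and 10.3. The domain of the nuclear receptor gene Esrrb at chr12:86493343-86504938 was at 72.5 and 75.0, then 15.3 and 15.9. The domain over Klf2, which encodes a factor related to KLF4, at chr8:72310590-72336688 was at 116 and 113, then 25.5 and 24.0. All of these domains overlapped a listed super-enhancer. The 2 domains of Tbx3, which encodes a T-box factor, were at 53.7 and 52.0, then 17.7 and 16.6, and at 58.6 and 60.2, then 8.95 and 11.9.

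At the other end, 5 domains had a higher mean MED23 height after dTAG-13 than in DMSO. The clearest was the domain at chr3:122406554-122436783, 112418 bp from the start of Bcar3, which encodes an adapter of adhesion and growth factor signalling. Its highest fold was 30.5 and 27.7 in DMSO against 53.4 and 54.6 after dTAG-13, and its load went from 3.14 and 2.95 to 5.33 and 5.16. The other 4, chosen for naming after their values were seen, were nearest to Klf6, Hook1, Ndufaf6 and Rsu1 and kept between 100% and 103%. The domain ranked 18, 143261 bp from Tead1 (a factor of the Hippo pathway), kept 97.1%, at 97.9 and 92.5 against 83.4 and 101, and its libraries overlapped. The lowest value belonged to a single-peak domain near the coactivator gene Ncoa1, at 70.1 and 63.6, then 5.46 and 4.22.

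**Figure D2:**
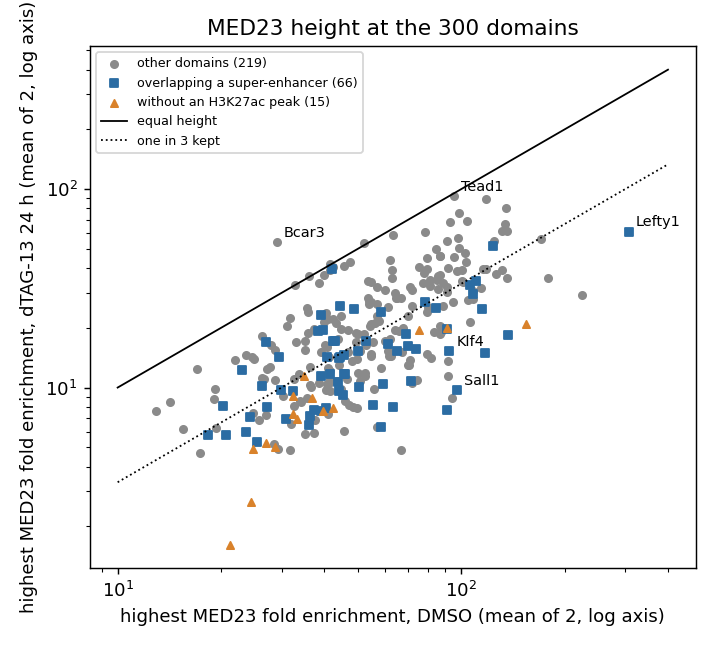
Each point is 1 of the 300 domains, with the mean highest MED23 fold enrichment of the 2 DMSO libraries on the horizontal axis and of the 2 dTAG-13 libraries on the vertical axis, both on log scales. Lines mark equal height and 1 in 3 kept. Most domains lie near or below the lower line, the median being 32.1%, and Bcar3 lies above the upper line at 186%.

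RNAPII was measured in other libraries and played no part in the choice of the domains. At the domains it was sparse: 218 and 215 of them had any RNAPII peak in the DMSO libraries and 137 and 136 after dTAG-13, and at matched numbers of peaks 124 had none in any library. The mean of log2(load + 1) was 0.673 and 0.628 in DMSO against 0.283 and 0.268 after dTAG-13. RNAPII peaks covered 9.29% and 8.87% of the bases in DMSO at a mean fold of 11.7 and 11.4, and 3.28% and 3.02% after dTAG-13 at 8.32 and 8.04. The share of the RNAPII score that lay in the domains was 3.34% in both DMSO libraries and 4.00% and 4.21% after dTAG-13.

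Of the 160 domains with enough RNAPII to be tested with limma, 116 (72.5%) fell at an adjusted p below 0.05. The background was 70.8% of all 1435 stitched regions tested, so the share at the domains was close to that of distal Mediator regions in general. A further 9 rose, against a background of 8.92%. The median log2 change was -0.53 for the domains and -0.83 for all regions tested. Those lower were 38 of 50 domains with a gene start inside, 78 of 110 without, and 31 of 42 over super-enhancers. These counts rest on the matched peak numbers. With all deposited peaks, 175 of 206 domains tested were lower and 4 higher. After centring each library on its median region, 24 of 160 were lower and 81 higher. The shares of all regions under these alternatives are not given, so nothing is read about the domains from these counts. With 1 library left out at a time the domains lower numbered 74 (without dTAG-13 replicate 2) to 98, and those higher 0 (without either dTAG-13 library) to 6.

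The domains named for RNAPII here were chosen after their values were seen. The largest fall was at a domain 24056 bp from Brd1, which encodes a subunit of histone acetyltransferase complexes. Its RNAPII load was 20.9 and 15.7 in DMSO against 2.17 and 3.36 after dTAG-13 (log2 change -2.36, SE 0.249, limma adjusted p = 0.00361). The domain nearest to Mir17hg, the host transcript of a microRNA cluster, was at 3.94 and 3.92, then 0 and 0 among the peaks used (adjusted p = 0.000875). The groups were apart at both domains.

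For the domain over Klf2, RNAPII loads were 5.19 and 5.24, then 0.667 and 0.413 (log2 change -2.02, adjusted p = 0.00142). Of the domains of Fos, an immediate-early gene, that ranked 24 was at 2.63 and 2.30, then 1.03 and 0.989, and that ranked 177 at 5.84 and 5.11, then 0.943 and 0.496. Both fell (log2 changes -0.79 and -1.92, adjusted p = 0.00581 and 0.00290). Lefty1 fell from a low level, 0.432 and 0.369 to 0 and 0 (adjusted p = 0.00188). The domain that gained MED23 near Bcar3 had a lower RNAPII load, 0.790 and 0.884 in DMSO against 0.492 and 0.416 after dTAG-13 (log2 change -0.34, adjusted p = 0.0210). The domains of Sox2, Klf4, Esrrb and Sall1 had no RNAPII peak among those used in any library, so no change could be measured there. The largest rise was near Vrk1, which encodes a nuclear kinase, from 0 and 0 among the peaks used to 0.695 and 0.780 (adjusted p = 0.00125). The lowest RNAPII fold used was 6.55 and 6.32 in the DMSO libraries, against 3.29 and 1.19 after dTAG-13. A DMSO peak below that limit would thus not be counted, and a load of 0 in DMSO does not show that RNAPII was absent.

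H3K27ac, the mark most often used to recognise active enhancers, had a peak in at least 1 library at 285 of the domains and in every library at 270. The mean of log2(load + 1) was 2.17, 2.36 and 2.18 in DMSO against 1.35, 2.09 and 1.44 after dTAG-13, the second dTAG-13 library lying close to the DMSO libraries. Peaks covered 44.2%, 46.1% and 41.0% of the bases in DMSO against 18.8%, 41.4% and 23.3% after dTAG-13. The mean fold over covered bases moved less, from 7.97, 8.94 and 8.42 to 7.74, 8.56 and 6.26. The domains' share of the H3K27ac score was 7.07%, 7.48% and 7.23% in DMSO against 9.52%, 6.13% and 8.14% after dTAG-13, so the groups overlapped.

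None of the 280 domains tested for H3K27ac with limma passed an adjusted p of 0.05, against a background of 0% of the 8943 regions tested. The smallest adjusted p was 0.0690. At an unadjusted p below 0.05, 33 domains were lower (11.8%) and 0 higher, against 16.6% and 2.66% of all regions tested. The estimate was below 0 at 261 of 280 (93.2%), against 83.1% of all regions tested, with a median log2 change of -0.64 beside -0.58 for all regions tested. At the 66 domains over super-enhancers it was below 0 in 66, with a median of -0.86, beside -0.60 at the other 214 tested. In a fit without dTAG-13 replicate 2, 41 of 280 domains were lower at a limma adjusted p below 0.05. The share of all regions in that fit is not given, so nothing is read about the domains from this count.

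The Klf4 domain had the smallest adjusted p (0.0690), with H3K27ac loads of 4.04, 4.96 and 2.10 in DMSO and 0 in each dTAG-13 library among the peaks used. The domain near Vwa3b was at 4.45, 6.02 and 6.09, then 0.211, 1.01 and 0.106 (adjusted p = 0.0774). For Esrrb the loads were 4.78, 6.35 and 4.89, then 0.900, 1.68 and 0.805 (adjusted p = 0.152). In these 3 domains every dTAG-13 library lay below every DMSO library, as in 100 of the 300 (33.3%). Over all 20624 regions the share was 9.69%, and among the other regions with a load in any library it was 18.6%. For Lefty1 the loads were 2.84, 3.68 and 2.20, then 0.512, 1.72 and 0.477 (adjusted p = 0.268). The Bcar3 domain overlapped between groups, at 2.18, 3.47 and 3.51, then 2.08, 6.33 and 2.68 (log2 change 0.13, adjusted p = 0.896).

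Across domains, the MED23 height kept and the H3K27ac change went together to a moderate degree (Spearman's rho = 0.38, Pearson's r = 0.43, n = 280 domains). For RNAPII the values were 0.10 and 0.14 (n = 160). These are descriptions across regions, which share libraries and are not independent replicates. Among all deposited H3K9me3 peaks, 119, 114 and 107 of the domains held one in the DMSO libraries (39.7%, 38.0% and 35.7%), against 18.1%, 17.9% and 15.4% of the other regions. After dTAG-13 the numbers were 11, 52 and 57, against 1.40%, 9.51% and 8.07% of the other regions. The first of these libraries had 11474 peaks in all, where the other H3K9me3 libraries had at least 104579. These shares are not matched for length, and the domains are longer than the other regions (median 14315.5 bp against 533.5 bp). In 156 domains no library had an H3K9me3 peak, and among the strongest 11474 peaks of each library 251 domains were at 0. The highest loads were at the domains on the Y chromosome near Gm47283 (4.66, 3.13 and 3.09 in DMSO, then 5.32, 5.21 and 2.13) and on the X chromosome near Gm21887 (4.71, 2.58 and 3.85, then 4.40, 4.16 and 0).

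A group of 15 domains had no H3K27ac peak in any of the 6 libraries although their MED23 ranked among the 300 highest. The nearest protein-coding genes were Onecut3, Bcor, Pitx1, Pax2, Pax7, Nfix, Lhx4, Lhx5, Hmx2, Atxn7l3b, Onecut2, Hrk, Ebf3, Gsx2 and Mecom. Most of these encode homeodomain, paired-box or other transcription factors of organ and neural development. In DMSO, 11 of the 15 genes (73.3%) were below 1 TPM, against 40 of the nearest coding genes of the other 285 domains (14.0%), and the median was 0.204 TPM against 30.9 TPM. This comparison was made after the values were seen and is given with no test.

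The highest-peak windows of these 15 domains held a median of 18 CpG dinucleotides and 63% G + C, against 3 and 48% in the others. In 1 of the domains an RNAPII peak was found in any library, and in 4 an H3K9me3 peak. MED23 at the Pax7 domain was 89.8 and 92.3 in DMSO against 22.6 and 17.3 after dTAG-13. At the Lhx4 domain it was 25.6 and 28.4, then 5.64 and 4.87. The 15 kept a median of 19.7% of their height, with a range of 7.64% to 32.8%, against 33.4% for those with H3K27ac. Several of the genes were higher in NPCs, such as Ebf3, at a mean of 0.259 TPM in mESCs and 35.0 TPM in NPCs, and Lhx5, at 0.130 and 26.0 TPM. Pax7 was at 0.0126 TPM in mESCs, 0.0600 TPM after 96 h of dTAG-13 and 3.66 TPM in NPCs.

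**Figure D3:**
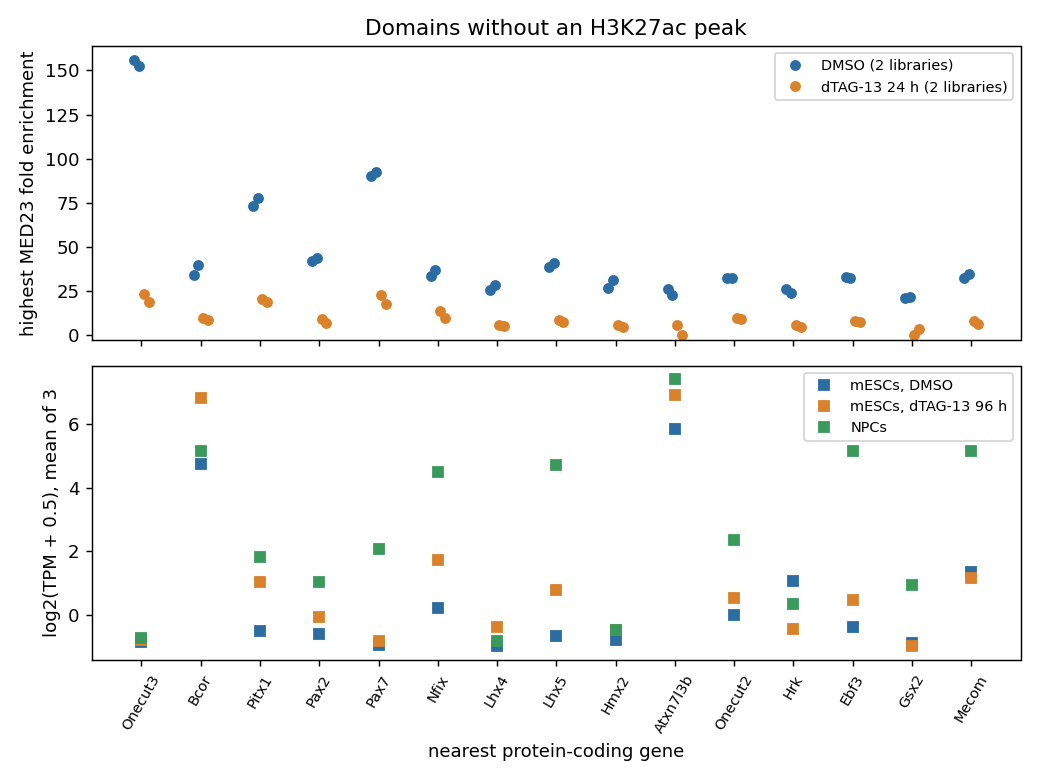
The 15 domains without an H3K27ac peak, named by their nearest protein-coding gene. The upper plot gives the highest MED23 fold in each DMSO and dTAG-13 library, and the lower plot the mean log2(TPM + 0.5) of that gene in DMSO, after 96 h of dTAG-13 and in NPCs. MED23 was lower after dTAG-13 in each, and 11 of the 15 genes were below 1 TPM in DMSO.

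The genes nearest to the domains were looked up among the 13185 active genes, those whose mean poly(A) RNA-seq level in DMSO exceeded 1 FPKM. The 300 domains had 285 nearest genes at a median distance of 25793.5 bp, and 14 of the genes were nearest to more than 1 domain. Their level in DMSO had a median of 13.8 FPKM, against 8.55 FPKM for all 13185. Because the filter asks for expression in DMSO, it favours falls over rises in any comparison with DMSO, so the counts of nearest genes are set beside the shares of all active genes. A gene was called at a limma adjusted p below 0.05 if it also moved by over 2-fold on the log2(value + 0.5) scale. Nearest in distance does not show that a domain acts on that gene.

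In nascent RNA, the nearest genes changed little at the early times. At 2 h, 1 of the 214 tested rose by over 2-fold and none fell, against 0.0984% and 0% of active genes and 0.127% and 0.0973% of all 13357 genes tested. It was Socs3, a feedback inhibitor of cytokine signalling, named after its value was seen, at 6.67, 5.90 and 7.09 FPKM in DMSO and 17.0, 16.8 and 18.4 FPKM at 2 h (log2 change 1.35, SE 0.124, limma adjusted p = 0.00277). Epha2, which encodes an ephrin receptor, rose by less than 2-fold from 4.34, 3.73 and 4.12 to 8.03, 8.28 and 7.48 FPKM (log2 change 0.89, adjusted p = 0.00287) and at 24 h was at 4.35, 4.31 and 4.08 FPKM. At any size, 16 rose and 2 fell at 2 h (7.48% and 0.935%), against 2.01% and 2.37% of active genes. At 6 h none passed 2-fold, against 0.0656% of active genes higher and 0.0875% lower (all genes 0.374% and 0.195%), and 38 rose and 1 fell at any size, against 9.75% and 1.51% of active genes. At an unadjusted p below 0.05, 70 of the 214 (32.7%) differed at 2 h and 90 (42.1%) at 6 h, against 24.2% and 30.7% of active genes. Of the 53 genes tested that were nearest to super-enhancer domains, 9 (17.0%) rose at any size at 2 h and 13 (24.5%) at 6 h. None of the 53 fell at either time.

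At 24 h, 9 nearest genes rose (4.21%) and 2 fell (0.935%) by over 2-fold, against 1.33% and 0.525% of active genes and 2.49% and 0.906% of all genes tested. The median log2 change was 0.24 beside 0.21 for all active genes, a shift that the medians of the libraries shared (0.24). After centring each library on its median gene, 3 nearest genes rose (1.40%) and 5 fell (2.34%). The shares of active genes when centred are not given, so these counts have no background here. The 9 genes higher without centring were Fos, Mki67, Irs2, Bcar3, Shb, Radil, Ski, Ssbp3 and Stk17b. The number higher depended on low values, being 18 with a pseudocount of 0.1 and 3 with a pseudocount of 1. Of the 53 genes tested that were nearest to super-enhancer domains, 1 rose and 1 fell by over 2-fold. At any size 18 rose (34.0%) and 7 fell (13.2%), against 39.3% and 6.34% of active genes. Their median log2 change was 0.22, beside 0.21 for active genes.

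Fos had the largest rise in nascent RNA, from 2.55, 2.98 and 1.84 to 12.6, 13.5 and 20.3 FPKM (log2 change 2.42, SE 0.238, limma adjusted p = 9.37e-05). Bcar3 rose from 0.655, 0.642 and 0.545 to 2.10, 2.20 and 1.75 FPKM (log2 change 1.17, adjusted p = 1.99e-05), and its antisense partner Gm42836 overlaps it, but the authors' methods describe the nascent reads as counted by strand. Mki67, which encodes a proliferation marker, rose from 1.26, 1.68 and 1.98 to 4.14, 5.65 and 4.84 FPKM, but its domain lay 523290 bp away. Irs2, an adapter of insulin signalling, rose from 3.08, 2.96 and 2.60 to 8.01, 6.77 and 8.11 FPKM, with its domain 341942 bp away. The groups did not overlap in any of them.

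The 2 genes lower at 24 h were Klf4 and Foxi3. Klf4 fell from 3.30, 3.16 and 1.63 to 0.952, 0.943 and 1.19 FPKM (log2 change -1.02, SE 0.217, adjusted p = 0.00470), and Foxi3, which encodes a forkhead factor, from 4.81, 3.41 and 2.38 to 1.60, 1.28 and 1.50 FPKM (adjusted p = 0.00426). In both, DMSO replicate 3 was the lowest of its group and lay above the dTAG-13 libraries. With 1 library left out at a time the number lower ran from 0 (without DMSO replicate 1 or dTAG-13 replicate 2) to 4 (without dTAG-13 replicate 3, the shallowest). Sox2 fell by just under 2-fold, from 23.3, 21.9 and 16.4 to 9.42, 9.50 and 11.8 FPKM (log2 change -0.96, adjusted p = 0.00204). Sall1 fell from 2.75, 2.80 and 2.84 to 1.64, 1.64 and 1.82 FPKM (log2 change -0.58, adjusted p = 0.000243). Esrrb, Klf2 and Tbx3 did not pass the test, with log2 changes of -0.13, 0.42 and -0.32.

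In poly(A) RNA the changes built up later. None of the 285 nearest genes passed 2-fold at 2 h (0.137% higher and 0.137% lower among active genes, 0.251% and 0.123% among all) or at 6 h (0.265% and 0.174%, 0.776% and 0.19%), while 101 (35.4%) and 158 (55.4%) had an unadjusted p below 0.05, against 33.4% and 49% of active genes. At 6 h, 90 genes were lower at any size (31.6%) and 39 higher (13.7%), against 20.2% and 19.1% of active genes. Klf4 was among them, at 43.0, 45.5 and 43.9 TPM in DMSO and 26.6, 27.4 and 26.4 TPM at 6 h (log2 change -0.71, adjusted p = 1.66e-07).

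At 24 h, 13 nearest genes rose (4.56%) and 14 fell (4.91%) by over 2-fold, against 6.27% and 2.14% of active genes and 10.1% and 2.01% of all genes tested. The median log2 change was -0.07, beside 0.06 for active genes. With each library centred on its median gene, which was 0.29 higher after dTAG-13, the counts were 6 higher (2.11%) and 27 lower (9.47%). Centring moves all genes, and the shares of active genes when centred are not given, so these counts have no background here. Of the 64 nearest genes of domains over super-enhancers, 2 rose and 7 fell. Those that rose, named after their values were seen, were Kazn, which encodes a protein of cell junctions, and the gene model Gm20544.

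The falls at 24 h included transcription factor genes. Vwa3b had the largest, from 24.8, 21.4 and 23.7 to 5.06, 4.98 and 4.61 TPM (log2 change -2.14, limma adjusted p = 7.14e-10). Klf4 fell from 43.0, 45.5 and 43.9 to 11.8, 11.7 and 11.1 TPM (log2 change -1.89, SE 0.0424, adjusted p = 2.42e-12), and Sall1 from 63.7, 62.8 and 64.5 TPM to between 26.5 and 27.6 TPM (log2 change -1.22). Arid5b, a cofactor of a histone demethylase, fell from 51.6, 50.0 and 50.2 to 18.3, 17.0 and 16.1 TPM. Nrp2, a semaphorin receptor, fell from 9.33, 9.30 and 10.4 to 3.59, 3.42 and 3.05 TPM, and the long noncoding RNA 4930444M15Rik from 3.21, 2.36 and 2.26 to 0.880, 0.770 and 0.684 TPM. Groups were apart in each of these genes. Feeder fibroblast markers were at a summed 41.3 to 43.3 TPM in DMSO and 67.2 to 72.1 TPM at 24 h. Of these markers, 2 of 9 were higher by over 2-fold, against 10.1% of all genes tested. Their part in the results was not tested.

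Sox2 and Esrrb fell by less than 2-fold at 24 h (log2 changes -0.64 and -0.65), as did Lefty1 (-0.35), Klf2 (-0.32), Mkrn1 (-0.80) and Epha2 (-0.77). Tbx3 stayed at 21.0, 17.4 and 16.2 TPM against 18.8, 18.4 and 19.1 TPM in DMSO (log2 change -0.06, adjusted p = 0.555). Among the genes of the other highest-ranked domains, Spen (-0.51), Ptma (-0.37), Mcl1 (-0.14), Gm4824 (-0.66) and Gm3375 (-0.58) were lower, Gm11427 was higher (0.78), and Rexo1 did not pass (0.11, adjusted p = 0.0508).

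The rises at 24 h were led by Fos, from 5.64, 5.09 and 6.06 to 27.3, 24.8 and 22.9 TPM (log2 change 2.06, adjusted p = 3.38e-10). Radil, an effector of the GTPase Rap, rose from 19.7, 20.0 and 20.3 to 72.9, 71.2 and 74.1 TPM (log2 change 1.84). Jph1, which encodes a protein of membrane junctions, rose from 4.29, 3.69 and 4.45 to 14.6, 15.3 and 15.9 TPM. Dhrs7, a dehydrogenase gene, rose from 18.2, 18.3 and 17.3 to 62.0, 63.9 and 55.4 TPM, and the receptor gene Notch3 from 29.9, 30.6 and 30.0 to 86.7, 84.7 and 87.9 TPM. Bcar3 rose from 24.4, 25.5 and 23.9 to 57.5, 53.3 and 51.8 TPM (log2 change 1.12), and groups were apart in all of these genes. Both Fos domains thus carried less MED23 and less RNAPII beside a gene with more RNA, while the Bcar3 domain carried higher MED23 and a lower RNAPII load.

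**Figure D4:**
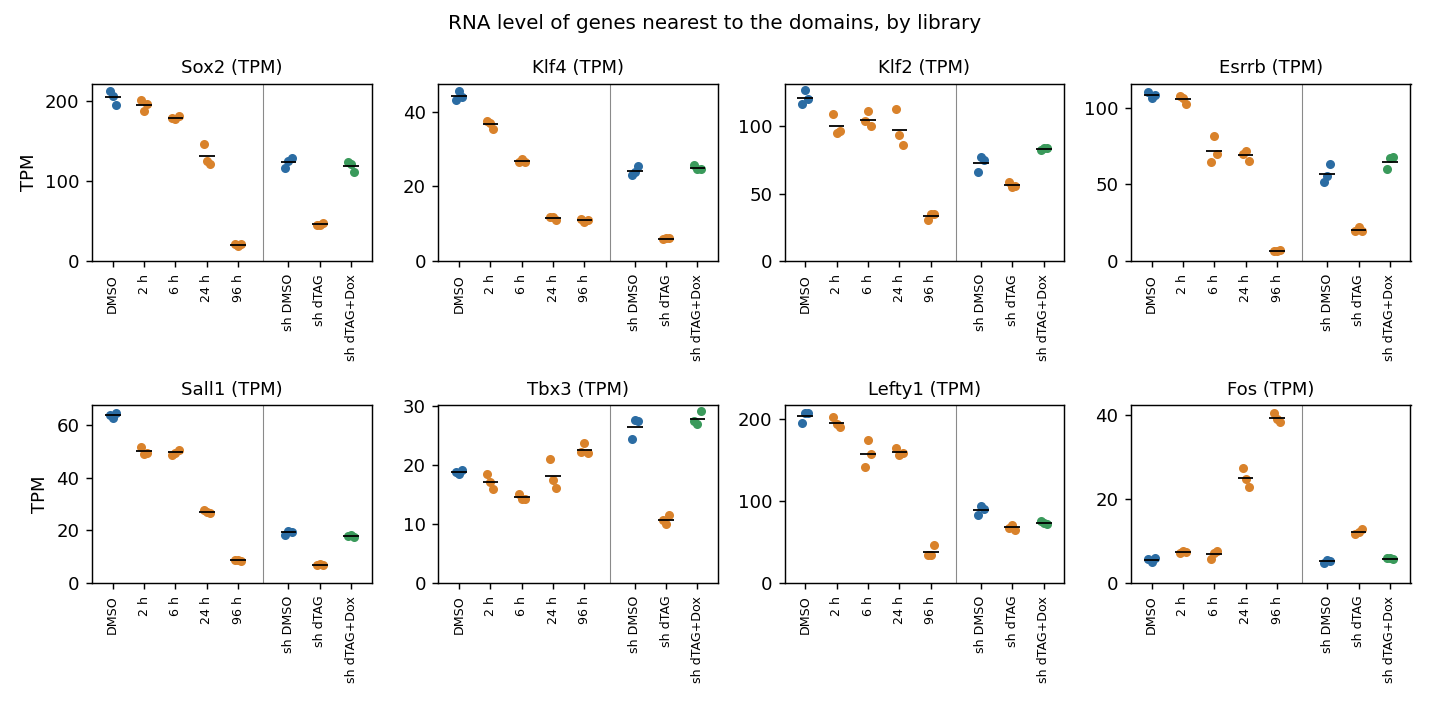
TPM of 8 genes nearest to domains, with 1 point per library and bars for means, in the time course (DMSO and 4 times of dTAG-13, from 2 h to 96 h) and in the shREPEATS line (DMSO, dTAG-13, dTAG-13 + Dox). Klf4 was between 43.0 and 45.5 TPM in DMSO and between 11.1 and 11.8 TPM at 24 h, whereas Fos was between 5.09 and 6.06 TPM and between 22.9 and 27.3 TPM.

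At 96 h, 55 nearest genes rose (19.3%) and 63 fell (22.1%) by over 2-fold, against 17% and 12.8% of active genes and 20.3% and 12.4% of all genes tested. The median log2 change was -0.17, beside -0.01 for active genes. Of the 64 genes of super-enhancer domains, 8 rose and 18 fell. The counts lower within 20 kb of the domain (29 of 127) and farther away (34 of 158) are given side by side without a test of the difference.

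The largest fall was again Vwa3b, to 0.0531, 0.186 and 0 TPM. Tdrd12, a gene of the piRNA pathway, fell from 71.8, 68.2 and 68.4 to 1.52, 1.89 and 1.75 TPM (log2 change -4.98, adjusted p = 8.23e-16). Esrrb fell from 110, 106 and 108 to 6.48, 6.91 and 7.14 TPM (log2 change -3.89), and Sox2 from 212, 206 and 195 to 21.9, 19.7 and 21.2 TPM (log2 change -3.26). Sept1, a septin gene, fell by 3.83 on the log2 scale and Fam25c by 3.73.

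Mkrn1 fell from 517, 513 and 506 to 70.9, 67.4 and 71.3 TPM (log2 change -2.86), Sall1 by 2.82, Lefty1 by 2.41, Klf4 by 1.96, Klf2 by 1.83 and Epha2 by 1.37 on the log2 scale. Tbx3 was the exception among the pluripotency genes nearest to domains, at 22.2, 23.6 and 22.0 TPM (log2 change 0.26, adjusted p = 0.00832), and with libraries centred on their median gene its change was -0.02.

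Large rises at 96 h included Hspb8, a small heat-shock protein gene, from 31.4, 30.7 and 31.1 to 361, 364 and 333 TPM (log2 change 3.48). Gadd45g, a stress gene, rose to 315, 326 and 311 TPM (log2 change 3.36), F3, the gene of tissue factor, to 288, 289 and 276 TPM (log2 change 3.19), and Krt8, a keratin of simple epithelia, to 2883, 2887 and 2757 TPM (log2 change 2.79). Markers of other cells moved too at 96 h. Of 10 markers of feeder fibroblasts 9 were tested and 7 rose by over 2-fold, against 20.3% of all genes tested, with a summed level of 324 to 346 TPM. Of 10 endoderm markers 9 were tested, 4 rose and 2 fell by over 2-fold, against 20.3% and 12.4% of all genes tested. Their part in the results was not tested.

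In the shREPEATS line, 280 nearest genes were tested. With dTAG-13 for 24 h, 5 rose (1.79%) and 13 fell (4.64%) by over 2-fold, against 1.41% and 1.42% of active genes and 2.38% and 1.44% of all. With Dox added to dTAG-13, 15 were higher (5.36%) and 2 lower (0.714%) than with dTAG-13 alone, against 1.46% and 1.12% of active genes and 1.49% and 1.96% of all. These comparisons share the dTAG-13 libraries, so a chance deviation in those libraries would move the comparisons in opposite directions. For the 64 genes of super-enhancer domains the counts were 0 higher and 8 lower, then 8 higher and 0 lower. At an unadjusted p below 0.05, 45 and 48 of these 64 (70.3% and 75.0%) differed in either direction, against 61.2% and 54.7% of active genes.

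The levels in the groups show what the counts hold. Klf4 was at 23.1, 23.9 and 25.5 TPM in DMSO, 5.99, 6.11 and 6.11 TPM with dTAG-13 and 25.6, 24.6 and 24.8 TPM with Dox added (log2 changes -1.91 and 1.96). Sox2 was at 116, 125 and 129 TPM, then 45.3, 45.4 and 47.7 TPM, then 124, 122 and 112 TPM (log2 changes -1.41 and 1.36). Esrrb was at 51.9, 55.2 and 63.1 TPM, then 19.6, 22.1 and 19.5 TPM, then 59.8, 67.0 and 67.5 TPM. In each of these genes the libraries with dTAG-13 alone lay below all others, while those of DMSO and of dTAG-13 with Dox lay close together or overlapped.

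Tbx3 differed from the time course at the same time, at 24.3, 27.7 and 27.4 TPM, then 10.6, 9.99 and 11.5 TPM, then 27.4, 26.9 and 29.1 TPM. Sall1 (log2 changes -1.39 and 1.30), Mkrn1 (-1.20 and 1.16), Vwa3b (-1.62 and 1.69), Tdrd12 (-1.38 and 1.51) and Sept1 (-1.53 and 1.58) passed in both comparisons. Lefty1 fell with dTAG-13 (-0.39, adjusted p = 7.30e-05) and did not pass with Dox added (0.12, adjusted p = 0.0855). The genes higher with dTAG-13 included Fos, Jph1, Dhrs7 and Gm38258. Fos was at 4.89, 5.55 and 5.20 TPM, then 11.6, 12.1 and 12.8 TPM, then 5.89, 6.03 and 5.65 TPM. The 2 genes lower with Dox added were Jph1 and Gm38258, and Gm38258 was named after its values were seen.

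Many of the nearest genes were lower in NPCs than in mESCs. Of 285 tested, 100 (35.1%) were lower in NPCs by over 2-fold and 42 (14.7%) higher, against 21.3% and 18.6% of active genes and 20.7% and 25.9% of all. The choice by expression in mESCs applies to both shares. Genes within 20 kb of their domain were lower in 57 of 127 (44.9%) and those farther away in 43 of 158 (27.2%). Of the 64 genes of super-enhancer domains, 31 were lower and 4 higher. Those higher were Sox2, Gm4824, Nkain1 and Trak1.

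Esrrb was at 1.10, 1.16 and 1.04 TPM in NPCs, Klf2 at 0.421, 0.288 and 0.355 TPM and Epha2 at 1.90, 2.49 and 2.28 TPM. Lefty1 was listed at 0, 0 and 0.0928 TPM. Sox2, which is also a neural factor, was higher in NPCs at 430, 413 and 423 TPM (log2 change 1.04), and Nrp2 was at 104, 94.8 and 96.1 TPM (log2 change 3.28). All 10 neural markers were higher by over 2-fold in NPCs, against 25.9% of all genes tested.

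**Figure D5:**
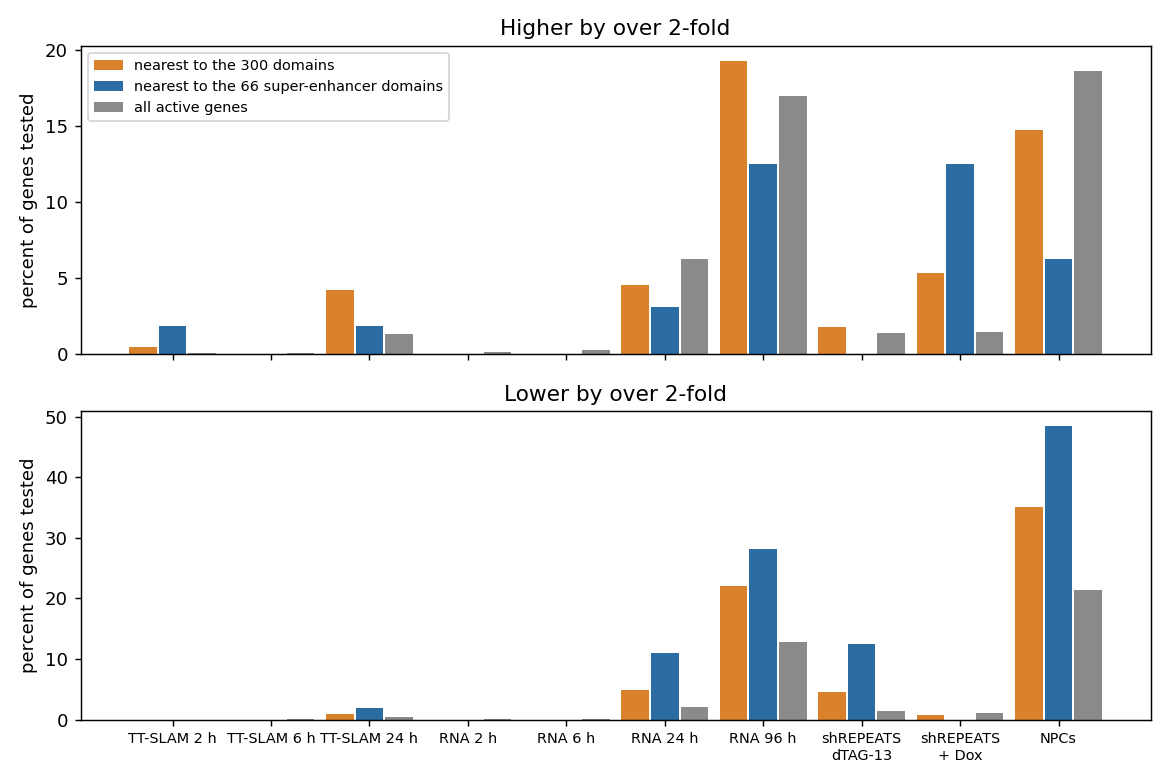
Percentage of the genes tested that were called higher (upper plot) and lower (lower plot) by over 2-fold at a limma adjusted p below 0.05, in each comparison, for the genes nearest to the 300 domains, those of the 66 domains over super-enhancers and all active genes. At 96 h the shares lower were 22.1% of the nearest genes and 12.8% of active genes, and in NPCs 35.1% and 21.3%.

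Beyond the nearest genes, 2 whole lists put the domains in context. Of 26 pluripotency genes, 24 were tested in nascent RNA and 4 of them were lower by over 2-fold at 24 h, against 0.906% of all genes tested. In poly(A) RNA all 26 were tested, and 9 were lower at 24 h and 22 at 96 h, against 2.01% and 12.4% of all genes tested. None was higher. In the shREPEATS line 15 were lower with dTAG-13 and 15 higher with Dox added, against 1.44% and 1.49% of all genes tested. Of 32 genes for Mediator subunits and their kinase module, none changed by over 2-fold at 24 h in poly(A) RNA. The background was 10.1% higher and 2.01% lower among all genes tested. At any size, 18 were lower and 6 higher, against 25% and 42.9% of all genes tested, with a median log2 change of -0.20. In nascent RNA at 24 h, 9 were higher and 1 lower at any size, against 32.3% and 5.59% of all genes. The summed level of these 32 genes was 1307 to 1351 TPM in DMSO and 1173 to 1181 TPM at 24 h.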

How the data were processed

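Peak lists and expression tables of TRIM28-FKBP mESCs were analysed, with RNA-seq files of parental mESCs, NPCs and the shREPEATS line. The domains, gene lists and rules were chosen with earlier results of these data known. According to the submitters' processing notes, reads were trimmed with cutadapt 2.4 and mapped to mm10, RNA-seq with STAR 2.7.5a and StringTie 2.0.6, and ChIP-seq with BWA, GATK 4.1.4.1 and MACS2. The deposited peak lists, made by the authors per library, hold the fold enrichment over background, a ratio, in column 7, and -log10 p-values and q-values. Fold enrichment was used, and -log10 q only for an alternative. The deposited RNA-seq tables hold FPKM, TPM and a coverage signal per gene, and the authors deposited TT-SLAM-seq as FPKM. Coverage served only to compare depth, which was 0.328 to 1.74 of the median RNA-seq library, and 0.426 to 1.60 for TT-SLAM-seq. Shallow libraries give less precise values for low genes. For peak lists depth is unknown.

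Loads were computed from peak lists cut to 14551 (MED23), 7689 (RNAPII), 30259 (H3K27ac) and 11474 (H3K9me3) peaks. Tests used limma 3.58.1 under R 4.3.3, with a mean-variance trend and Benjamini-Hochberg adjustment, over all regions with a load in at least 2 libraries or all genes with at least 0.5 FPKM or 1 TPM in at least 3 libraries. Each experiment was fitted as a whole, without a block. Log2 changes are of log2(load + 1) or log2(value + 0.5) and understate the change of low genes. The scripts were tested on simulated data. Gene positions matched GENCODE vM21 for 53498 of 54452 shared genes, and no peak ran past a chromosome end, so GRCm38 was used for sequences. The authors' super-enhancer and retroviral element lists were used for overlaps only.

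Named genes were those nearest to the 10 highest domains, those in a pluripotency list, and the 5 largest rises and falls among called genes whose libraries did not overlap, for nascent RNA at 24 h and for RNA-seq at 24 h and 96 h. One item that the rule names is not reported here. Others are said to be named after their values were seen. Alternatives changed the peaks counted, stitching, pseudocount, filter, scaling, choice of gene, replicate block and libraries. Hi-C, single-cell and input samples were not used.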

Additional observations from a re-analysis of the deposited data

Results flagged for a closer look

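Among the named genes, 2 moved in opposite directions after 24 h of dTAG-13 in the 2 lines, every treated library lying on one side of every DMSO library in the one line and on the opposite side in the other. Gm3375, the pseudogene nearest to the domain ranked 7, had a log2 change of -0.58 in the time-course line and 0.15 in the shREPEATS line. With each library centred on its median gene, which moved by 0.16 in the shREPEATS line, the latter was -0.017 (limma adjusted p = 0.588), so the opposite direction of this gene rests on the scaling. Krt8, whose gene start lies inside the domain ranked 46, had a log2 change of -0.61 in the time-course line and 0.57 in the shREPEATS line, and -0.90 and 0.40 when centred. Over all nearest genes, 20 of 280 (7.14%) passed in opposite directions without overlap in either line, against 8.76% of 13010 active genes. The difference between the lines was not tested for either gene. The lines were sequenced from poly(A) RNA and from total RNA, so line and library type cannot be told apart.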

How the results depend on the processing

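Of the values that answer a comparison, 416 were on the same side under an alternative, 69 moved and 5 reversed, and among single genes 786 were on the same side, 11 became stronger, 16 weaker and 3 reversed. The limits are these. Peak lists hold no reads, and the counts of domains depend on which peaks are compared. Centring removes whatever all regions or genes share. No share of all regions or genes is given beside the counts under the alternatives below. The 24 h nascent RNA calls rest on low FPKM values. MED23 and RNAPII have 2 libraries per group, and when 1 is left out the lone library is assumed to vary like the others. The cause of each change below was not tested.

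For MED23 at the domains, the mean log2 load change was -2.21, and -2.26 with all deposited peaks, -2.32 with peaks of a -log10 q of at least 10, -2.53 with domains stitched at 3 kb, -2.83 with a pseudocount of 0.1, -0.65 with each library centred on its median domain and -2.46 for the 100 highest domains. The change in the share of the summed peak score was -0.29 percentage points, and reversed to 2.56 with all deposited peaks, 5.86 with the q limit and 0.76 at 3 kb. It was -0.69 for the 100 highest domains and -6.88 with bases within 2.5 kb of gene starts left out, an alternative chosen after seeing the data. With 1 library left out the load change ran from -2.26 to -2.17 and the share from -0.36 to -0.22.

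For RNAPII at the domains, the mean log2 load change of -0.37 was -0.51 with all deposited peaks, -0.46 with the q limit, -0.43 at 3 kb, -0.34 without bases near gene starts, -0.81 with a pseudocount of 0.1, -0.40 for the 100 highest domains, and reversed to 0.60 when centred. The share rose by 0.77 points, 0.61 with all deposited peaks, 0.024 with the q limit, 0.49 with domains ranked by DMSO replicate 2 and 5.00 without bases near gene starts. The 116 domains lower of 160 tested were 175 of 206 with all deposited peaks and 24 of 160 when centred. The 9 higher were 4 with all deposited peaks, 1 with the q limit, 81 when centred, 14 at 3 kb and 3 with the replicate block. With 1 library left out, 74 to 98 were lower and 0 to 6 higher, the share rose by 0.66 to 0.87 points, and the load change ran from -0.40 to -0.35.

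For H3K27ac at the domains, the mean log2 load change of -0.61 was -0.94 with a pseudocount of 0.1 and reversed to 0.32 when centred. The share rose by 0.67 points, and by 2.02 with the q limit. With 1 library left out the domains lower ran from 0 to 41, the load change from -0.84 to -0.47 and the share change from -0.13 to 1.57.

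For TT-SLAM-seq at 24 h, the 9 nearest genes higher were 18 with a pseudocount of 0.1, 3 with a pseudocount of 1, 3 when centred, 1 with a mean of at least 5, 15 with any tested gene as nearest, 8 with every active gene within 50 kb and 2 for the 100 highest domains. The 2 lower were 5 when centred, 0 with a pseudocount of 1, 0 with a mean of at least 5, 7 within 50 kb and 0 for the 100 highest domains. The median of 0.24 was -0.0019 when centred, 0.16 with a mean of at least 5 and 0.14 within 50 kb. With 1 library left out, 9 to 11 were higher, 0 to 4 lower, and the median was 0.20 to 0.27.

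For RNA-seq, the 6 h median of -0.07 was -0.16 when centred, and with 1 library left out 0 to 2 genes were higher. At 24 h the 13 higher were 6 when centred and 22 with any tested gene, the 14 lower were 27 when centred, and the median of -0.07 was -0.36 when centred and -0.0016 with any tested gene. At 96 h the median of -0.17 was -0.44 when centred, -0.10 with a mean of at least 5, -0.10 with any tested gene, -0.26 within 50 kb and -0.24 for the 100 highest domains, and -0.17 to -0.13 with 1 library left out. In the shREPEATS line with dTAG-13, the 5 higher were 1 when centred and the median of 0.083 was -0.082. With Dox added the median of 0.0010 was 0.073 when centred. In NPCs the median of -0.36 was -0.39 with a pseudocount of 0.1, -0.76 when centred and -0.40 to -0.35 with 1 library left out. Among named genes, centring reversed Rexo1 at 24 h to -0.18, Gm3375 at 96 h to -0.28 and Tbx3 at 96 h to -0.018.

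Replicate numbers are shared between groups. The deviations of samples of the same number had weak correlations, -0.205 to 0.177, with no comparison in which all were over 0.1. For RNA-seq at 6 h and 96 h, NPCs and RNAPII, each sample correlated best with the DMSO sample of its own number. The lowest of these correlations were 0.0143, 0.0311, 0.0111 and 0.0594 in that order. With 2 RNAPII libraries per group, the deviations within a group mirror each other. The RNAPII matches are therefore a single outcome, with 0.0594 for the same number and -0.0594 for the other. With the replicate block, beside the RNAPII count above, Rexo1 passed the test in RNA-seq at 24 h (0.11, limma adjusted p = 0.0454), and no other count moved by over 1.5 times.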
